A study of Homo sapiens with 16 samples.

Results

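EGR1, EGR2, EGR3, IER2, IER3, IER5, IER5L, KLF2, KLF4 and KLF6 are 10 early response genes, taken by symbol from the tables of 23597 genes measured by RNA-seq and 19201 genes measured by ribosome footprinting (Ribo-seq). Each of the 10 symbols had a row in both tables. They were measured in WI-38, a fibroblast line from human lung whose divisions cease with repeated passage. The groups were senescent cells at passage 36 after heat shock, senescent controls at passage 36, young cells at passage 24 after heat shock, and young controls at passage 24. Heat shock lasted 2 h at 44 °C. All groups, controls included, were starved of serum for 24 h and returned to complete medium for 24 h before harvest. Each group had 2 libraries per assay, 16 in all, and the labels do not say whether a pair came from separate cultures.

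Early response genes are transcribed within minutes of a growth factor or a stress, without new protein synthesis. Many are switched on when ERK kinases phosphorylate ternary complex factors such as ELK1, which sit with serum response factor (SRF) on CArG boxes near the start of the gene, and their transcripts are short-lived. EGR and KLF proteins are zinc finger transcription factors that bind GC-rich DNA, KLF2 and KLF4 being also known as targets of the ERK5 kinase. IER proteins are not DNA-binding factors of this kind: IER3 acts in survival and ERK signalling, IER2 is a nuclear protein linked to cell motility, and IER5 binds both the phosphatase PP2A and heat shock factor 1 (HSF1) and raises HSF1 activity, while HSF1 in turn is known to drive the IER5 gene. IER5L is a paralog of IER5.

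The promoters of IER5, its paralog IER5L and EGR1 are shown because IER5 rose in both states, IER5L is its relative, and the EGR1 libraries moved in opposite directions in the 2 states. Each run is the 250 bases before the annotated start, from RefSeq on GRCh38.p14, a later build than the hg19 that the submitters' processing notes name. The IER5 window is chr1:181088450-181088699 on the plus strand, the IER5L window is chr9:129178262-129178511 on the minus strand, and the EGR1 window is chr5:138465229-138465478 on the plus strand. Capitals in the IER5 and IER5L runs mark GAANNTTC, a pair of inverted heat shock element units, and CCAAT, which reads ATTGG on the strand printed. Capitals in the EGR1 run mark CArG boxes.
IER5: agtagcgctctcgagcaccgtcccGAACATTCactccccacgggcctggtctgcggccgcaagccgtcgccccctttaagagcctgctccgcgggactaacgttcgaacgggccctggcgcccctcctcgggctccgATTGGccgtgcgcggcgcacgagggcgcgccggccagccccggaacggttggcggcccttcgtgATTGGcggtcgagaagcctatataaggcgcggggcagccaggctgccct
IER5L: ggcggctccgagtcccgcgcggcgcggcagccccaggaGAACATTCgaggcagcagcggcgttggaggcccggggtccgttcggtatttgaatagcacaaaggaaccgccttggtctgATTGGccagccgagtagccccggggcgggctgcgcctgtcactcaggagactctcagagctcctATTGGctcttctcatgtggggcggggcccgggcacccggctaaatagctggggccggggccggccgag
EGR1: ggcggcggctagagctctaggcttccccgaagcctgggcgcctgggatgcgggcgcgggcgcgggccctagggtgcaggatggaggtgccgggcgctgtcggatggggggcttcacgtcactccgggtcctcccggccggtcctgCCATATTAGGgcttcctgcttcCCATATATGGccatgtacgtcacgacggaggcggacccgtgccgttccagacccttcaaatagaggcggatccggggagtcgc
The match to GAANNTTC was GAACATTC in both IER5 and IER5L, with its first base 226 bases before the start of IER5 and 212 before that of IER5L. Each of these windows also held 2 CCAAT matches, as did that of KLF6. The EGR1 boxes began 105 and 83 bases before the start. With both strands searched over 35116 promoter windows of the same length, 5.78% held GAANNTTC, 32% held CCAAT and 1.16% held a CArG box. Of the 8 members with an entry in the promoter table, IER5 and IER5L had GAANNTTC in the window, and EGR1 and a further start of EGR2 had a CArG box. Such matches describe the letters and are not evidence of binding. A heat shock element pair in the other order, held by 6.62% of the windows, and a heat shock element triple, held by 0.441%, were also searched. Neither was found in the windows of these 8 members, IER5 and IER5L included.

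Between 26434514 and 37126871 counts per library were assigned to genes in RNA-seq, and between 4581141 and 9104077 in Ribo-seq. The 9 fibroblast markers were all present, with a summed RNA level of 9956 to 15153 TPM (transcripts relative to the library total, per length) per library, whereas the summed level was 12.7 to 25.3 TPM for 7 endothelial markers and 104 to 178 TPM for 5 immune markers. CDH5, an endothelial cadherin, ERG, also of the endothelial list, and MS4A1 and CD3E, of B and T cells, were listed at 0 in all 4 groups. Other markers of these lists were not. PECAM1 was at 0 in the heat shock groups only, KDR in young heat shock only and PTPRC in the senescent groups only. TEK, VWF, TIE1, CD68 and CD14 were above 0 in every group, so the immune sum in senescent cells was that of CD68 and CD14. The summed level of 6 epithelial markers was 199.9 to 224 TPM in senescent heat shock, 188 to 198 TPM in senescent control, 143 to 147 TPM in young heat shock and 133 to 136 TPM in young control, and its part in the results was not tested. Among 9 genes of HSF1 and its classical targets, 6 rose in RNA of senescent cells and 7 in RNA of young cells after heat shock, and none fell. Over all genes 0.577% passed in senescent and 1.14% in young cells, in either direction. The 2 young control footprint libraries differed from each other far less than other pairs did, with a chi-square per degree of freedom of 1.75 against 16.8 to 37.5 in the other footprint pairs.

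Per length, the most abundant of these genes differed between heat shock and control. IER5 RNA averaged 321 ± 12.6 TPM in senescent heat shock and 286 ± 8.21 TPM in young heat shock (SD, n = 2 each), the highest of the 10 genes in both groups, and no other member's libraries overlapped it. In controls IER3, KLF6 and IER5 led. Their RNA averaged 64.9 ± 13.8, 56.2 ± 11.5 and 52.3 ± 4.99 TPM in senescent control, where neighbours overlapped. In young control they averaged 68.8 ± 4.93, 60.7 ± 3.80 and 54.2 ± 1.99 TPM, with no overlap. EGR1 and IER2 followed in both control groups, at 31.1 and 33.2 TPM in senescent control and 45.2 and 41.2 TPM in young control, and they overlapped in senescent control. KLF2, KLF4 and IER5L lay between 4.49 and 7.57 TPM in controls, and EGR2 and EGR3 at or below 0.480 TPM. In footprints KLF6 led both control groups, at 107 ± 14.3 TPM in senescent and 107 ± 3.55 TPM in young control. IER5 led both heat shock groups, at 257 ± 51.1 TPM in senescent and 242 ± 1.71 TPM in young cells.

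**Figure D1:**
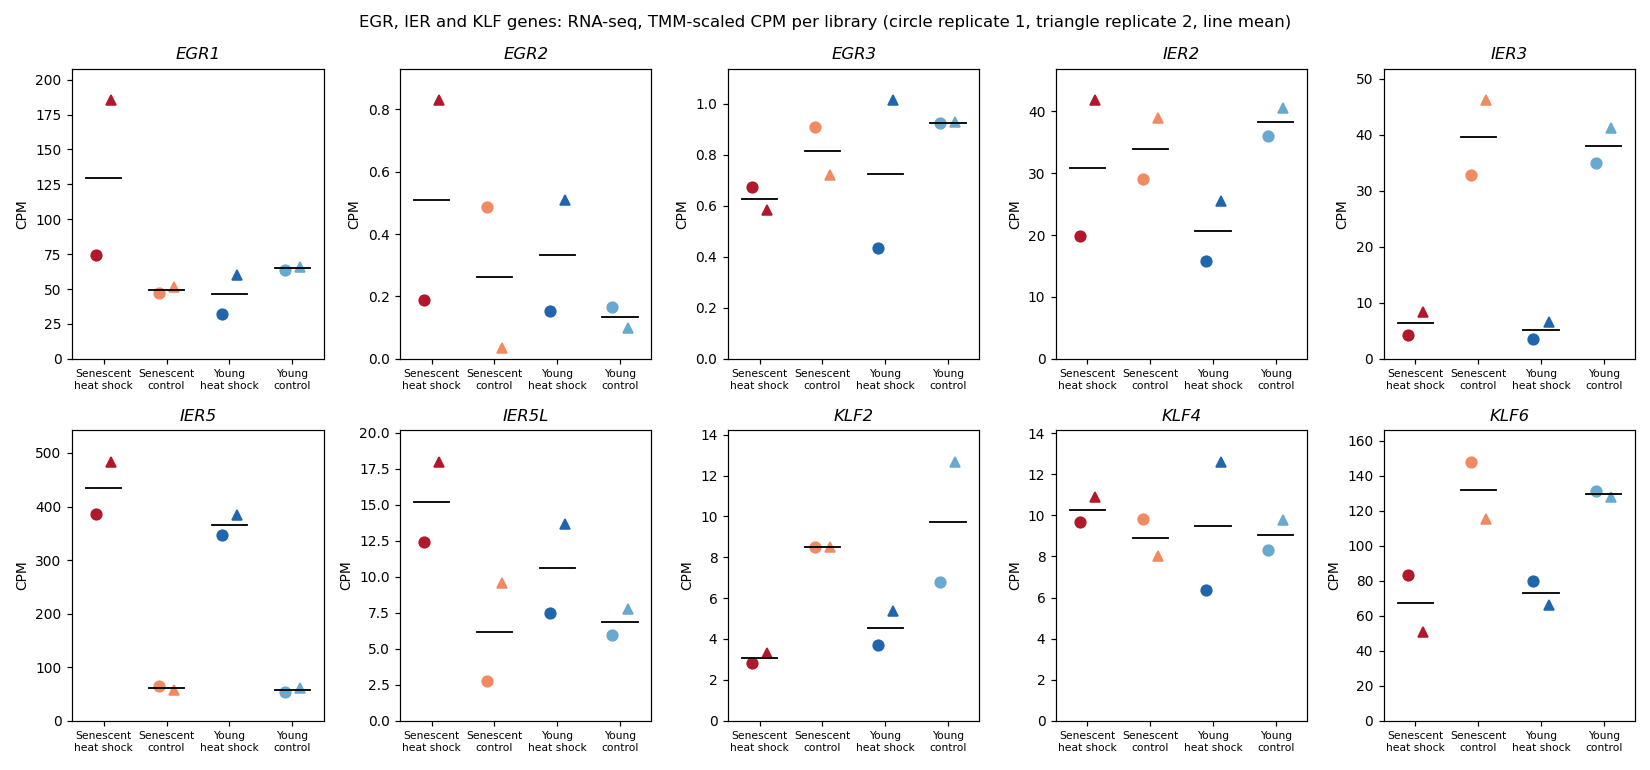
RNA-seq CPM (TMM scaled) on the vertical axis for each of the 10 genes, with a circle for replicate 1, a triangle for replicate 2 and a line at the mean. IER5 lies at 346 CPM or more in the heat-shocked libraries and at 63.9 CPM or less in controls, IER3 shows the reverse order, and EGR1 is highest in senescent heat shock replicate 2.

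The effect of heat shock on RNA was tested in each state with edgeR's quasi-likelihood test, with p-values adjusted (Benjamini-Hochberg) over the 13177 genes tested, among which all 10 members were. Levels compared between libraries are CPM, counts relative to the library total scaled by TMM, and changes are log2 fold changes ± SE, positive where heat shock was higher. In senescent cells IER5 rose and IER3 fell, so 2 of 10 members passed, against 0.577% of all genes. In young cells the same 2 passed in the same directions, against 1.14% of all genes. At an unadjusted p under 0.05 there were 6 members in senescent cells, against 8.29% of all genes, and 5 in young cells, against 10.1%. Same-numbered RNA libraries deviated together, and with replicate number as a block 6 of 10 members passed in senescent cells (EGR1, IER3, IER5, IER5L, KLF2 and KLF6), against 6.28% of all genes. In young cells 5 passed with the block (IER2, IER3, IER5, KLF2 and KLF6), against 8.77% of all genes. The median change of the 10 members was 0.033 in senescent cells and −0.43 in young cells, beside −0.0098 and 0.0093 over all genes tested. The 2 heat comparisons share no libraries, but their spread was estimated jointly over the groups.

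IER5 had 385 and 484 CPM in senescent heat shock, against 63.9 and 58.2 CPM in senescent control. It had 346 and 384 CPM in young heat shock, against 54.3 and 61.0 CPM in young control. Heat-shocked libraries were far above controls in both states, and the lowest senescent heat shock library lay just above the highest young one. The rise was 2.83 ± 0.21 in senescent cells (adjusted p = 0.00114) and 2.66 ± 0.20 in young cells (adjusted p = 0.00101), about 7.12-fold and 6.34-fold. Both rises passed in all 15 alternatives run, with adjusted p up to 0.0300 in senescent and 0.0235 in young cells. The senescent response minus the young one was 0.17 ± 0.27 (adjusted p = 1).

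IER5L, the paralog of IER5, was counted far less in RNA and was more scattered. It had 12.4 and 18.0 CPM in senescent heat shock, against 2.76 and 9.54 CPM in senescent control. It had 7.49 and 13.7 CPM in young heat shock, against 5.97 and 7.75 CPM in young control. The senescent groups did not overlap and the young ones did. The change was 1.31 ± 0.56 in senescent cells (adjusted p = 0.590) and 0.62 ± 0.55 in young cells (adjusted p = 0.889). With the replicate block the senescent change passed, at 1.45 (adjusted p = 0.0332). Transcripts annotated on the opposite strand overlap IER5L, IER2, IER3 and EGR3, and the sources used here do not say whether reads were counted by strand, so reads of those partners cannot be told apart.

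IER3 had 4.28 and 8.35 CPM in senescent heat shock, against 32.8 and 46.2 CPM in senescent control. It had 3.59 and 6.65 CPM in young heat shock, against 34.9 and 41.2 CPM in young control. All 4 heat-shocked libraries were below all 4 controls. The fall was −2.65 ± 0.42 in senescent cells (adjusted p = 0.0416) and −2.90 ± 0.42 in young cells (adjusted p = 0.0223). The senescent call was lost when any library of that state or any young control library was left out, with adjusted p of 0.197 and 0.0965 without senescent heat shock replicates 1 and 2, 0.164 and 0.203 without senescent control replicates 1 and 2, and 0.0627 and 0.0659 without young control replicates 1 and 2. The young call was lost without young heat shock replicate 1 (adjusted p = 0.150) and without young control replicate 1 (0.0696) or 2 (0.111).

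IER2 had 19.8 and 41.9 CPM in senescent heat shock, against 29.1 and 38.9 CPM in senescent control. It had 15.9 and 25.6 CPM in young heat shock, against 35.9 and 40.6 CPM in young control. The 2 senescent heat shock libraries spanned both senescent controls, while both young heat shock libraries were below both young controls. The change was −0.14 ± 0.38 in senescent cells (adjusted p = 0.968) and −0.88 ± 0.38 in young cells (adjusted p = 0.491). With the replicate block the young change passed, at −0.93 (adjusted p = 0.0311).

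EGR1, the best-known SRF and ELK1 target of the family, had 74.1 and 186 CPM in senescent heat shock, against 46.9 and 51.2 CPM in senescent control. It had 32.0 and 60.4 CPM in young heat shock, against 63.9 and 65.5 CPM in young control. Heat-shocked libraries were above controls in senescent cells and below them in young cells, without overlap in either state, and replicate 2 was the higher in both heat-shocked pairs. The change was 1.40 ± 0.44 in senescent cells (adjusted p = 0.356) and −0.49 ± 0.43 in young cells (adjusted p = 0.889). The difference between the responses, 1.89 ± 0.61, did not pass (adjusted p = 1). DESeq2 called the senescent change, at 1.44 (adjusted p = 0.0497), as did the replicate block, at 1.29 (adjusted p = 0.0409). The values depended on senescent heat shock replicate 2: without it the senescent change was 0.58 (adjusted p = 0.847) and the difference between the responses 1.07, and without replicate 1 they were 1.91 and 2.40.

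EGR2 and EGR3 were close to the limit of detection, so their counts are given without a fold. EGR2, known for myelination and T cell tolerance, had 5 and 20 RNA counts in senescent heat shock, against 15 and 1 in senescent control. It had 5 and 12 in young heat shock, against 7 and 3 in young control, and groups overlapped in both states. EGR3 had 18 and 14 RNA counts in senescent heat shock, against 28 and 20 in senescent control, and 14 and 24 in young heat shock, against 39 and 28 in young control. In footprints EGR2 had between 0 and 8 counts per library. EGR3 had 0 counts in both senescent heat shock libraries, which allows up to 3 counts in each, against 2 and 1 in senescent control, and 0 and 11 in young heat shock, against 1 and 5 in young control. These depths cannot show a difference in footprints.

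KLF2, a factor known for quiescence of T cells and endothelium, had 2.81 and 3.32 CPM in RNA of senescent heat shock, against 8.48 and 8.49 CPM in senescent control. It had 3.72 and 5.38 CPM in young heat shock, against 6.78 and 12.7 CPM in young control. Heat-shocked libraries were below controls in both states. The change was −1.47 ± 0.36 in senescent cells (adjusted p = 0.196; 0.0230 with DESeq2) and −1.10 ± 0.36 in young cells (adjusted p = 0.288). With the replicate block both passed, at −1.48 (adjusted p = 0.0150) in senescent and −1.07 (adjusted p = 0.0319) in young cells.

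KLF6, a widely expressed factor, had 83.2 and 50.7 CPM in RNA of senescent heat shock, against 148 and 115 CPM in senescent control. It had 79.6 and 66.2 CPM in young heat shock, against 131 and 128 CPM in young control. Groups did not overlap in either state. The change was −0.98 ± 0.27 in senescent cells (adjusted p = 0.259; 0.0485 with DESeq2) and −0.83 ± 0.27 in young cells (adjusted p = 0.280). With the replicate block both passed, at −0.99 (adjusted p = 0.0130) in senescent and −0.84 (adjusted p = 0.0177) in young cells.

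KLF4, one of the reprogramming factors, had 9.68 and 10.9 CPM in RNA of senescent heat shock, against 9.82 and 8.02 CPM in senescent control. It had 6.35 and 12.6 CPM in young heat shock, against 8.29 and 9.77 CPM in young control, so groups overlapped in both states. The change was 0.20 ± 0.34 in senescent cells (adjusted p = 0.935) and 0.07 ± 0.34 in young cells (adjusted p = 0.992). Scaled by library size only, it was −0.029 and −0.23, a setting that moved the median of all genes to −0.23 in senescent and −0.27 in young cells.

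Footprint counts follow both the amount of RNA and the ribosomes on it. Of the 11288 genes tested in footprints 8 were members. IER5 rose and KLF2 fell in both states, so 2 of 8 passed in senescent cells, against 8.35% of all genes, and 2 of 8 in young cells, against 1.15%. At an unadjusted p under 0.05 there were 4 in senescent cells, against 28.7% of all genes, and 4 in young cells, against 16%. The median change of the 8 members was −0.47 in senescent and −0.77 in young cells, beside 0.031 and −0.0052 over all genes tested.

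**Figure D2:**
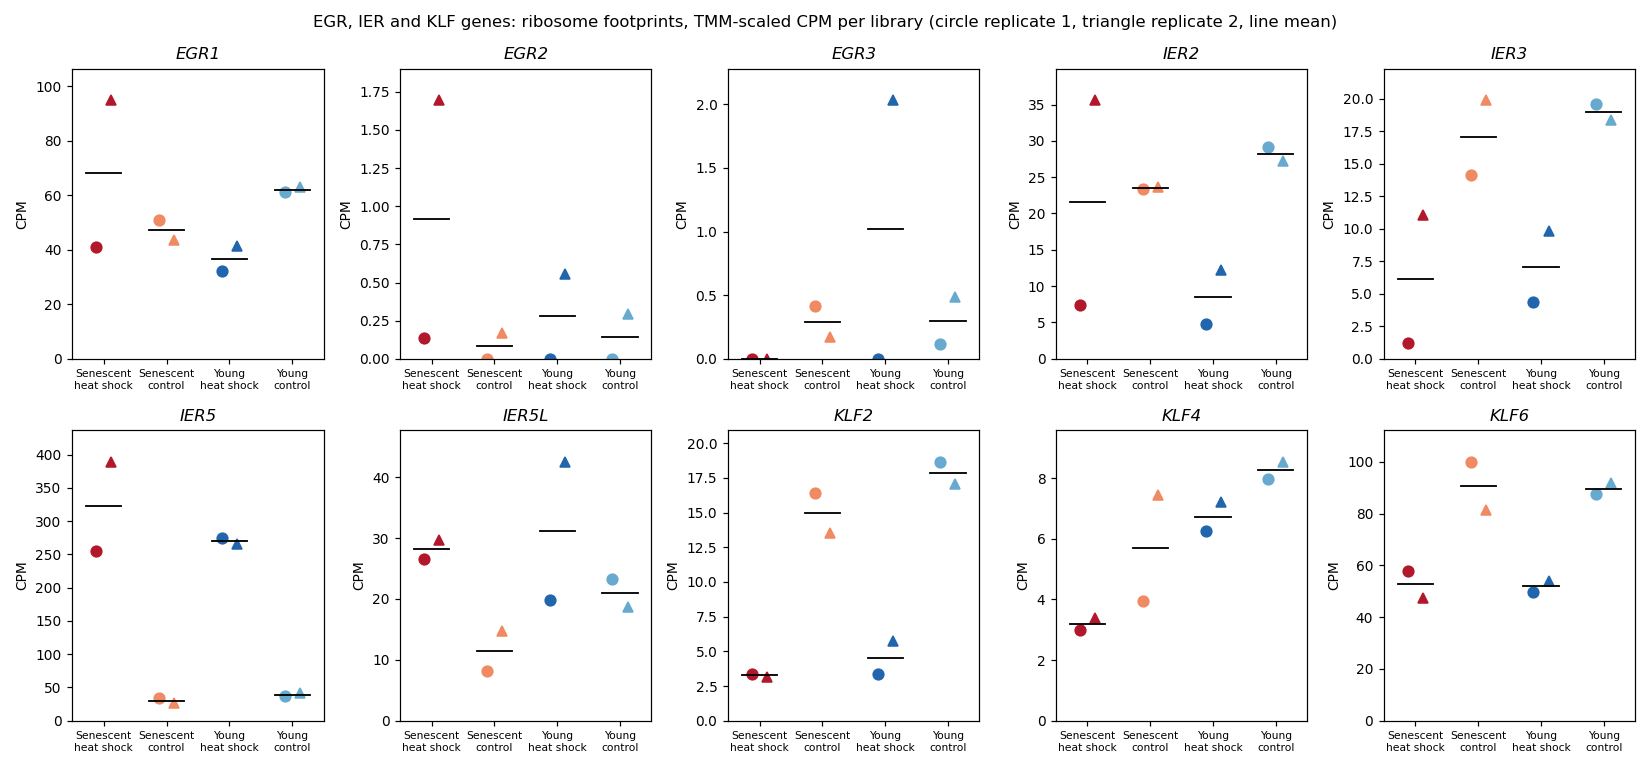
Ribosome footprint CPM (TMM scaled) on the vertical axis for each of the 10 genes, with a circle for replicate 1, a triangle for replicate 2 and a line at the mean. IER5 is at 256 CPM or more and KLF2 at 5.74 CPM or less in the heat-shocked libraries, while IER2 and IER3 differ widely between the 2 senescent heat shock libraries.

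IER5 footprints were 256 and 389.6 CPM in senescent heat shock, against 33.5 and 26.9 CPM in senescent control. They were 275 and 266 CPM in young heat shock, against 36.5 and 42.2 CPM in young control. Heat-shocked libraries were again far above controls. The rise was 3.42 ± 0.26 in senescent cells (adjusted p = 5.03e-04) and 2.78 ± 0.25 in young cells (adjusted p = 0.00116), or 10.7-fold and 6.88-fold. All 16 alternatives kept these calls, with adjusted p up to 0.0120 in senescent and 0.0292 in young cells. The larger senescent value did not differ from the young one by the test of the difference, 0.64 ± 0.34 (adjusted p = 0.834).

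KLF2 footprints were 3.39 and 3.18 CPM in senescent heat shock, against 16.4 and 13.5 CPM in senescent control. They were 3.33 and 5.74 CPM in young heat shock, against 18.7 and 17.1 CPM in young control. Every heat-shocked library was below every control, on 15 to 31 counts per heat-shocked library. The fall was −2.18 ± 0.36 in senescent cells (adjusted p = 0.0129) and −1.97 ± 0.35 in young cells (adjusted p = 0.0355), and the responses differed by −0.21 ± 0.49 (adjusted p = 0.942). The senescent call was lost without senescent heat shock replicate 2 (adjusted p = 0.0606) and without senescent control replicate 1 (0.0502). The young call was lost without young heat shock replicate 1 (0.193) or 2 (0.0522), without young control replicate 1 (0.381) or 2 (0.313), with limma on log2(TPM + 0.1) (0.0538), and with the 2 similar young control libraries summed as 1 sample (0.347).

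IER3 footprints, unlike its RNA, did not pass. They were 1.22 and 11.0 CPM in senescent heat shock, against 14.2 and 19.9 CPM in senescent control. They were 4.37 and 9.81 CPM in young heat shock, against 19.6 and 18.4 CPM in young control. Groups did not overlap in either state, but the senescent heat shock pair was 9.05-fold apart. The change was −1.55 ± 0.76 in senescent cells (adjusted p = 0.216) and −1.41 ± 0.74 in young cells (adjusted p = 0.393). The senescent value was −0.66 (adjusted p = 0.387) without senescent heat shock replicate 1 and −3.82 (adjusted p = 0.0370) without replicate 2.

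IER2 footprints were 7.45 and 35.7 CPM in senescent heat shock, against 23.3 and 23.6 CPM in senescent control. They were 4.79 and 12.2 CPM in young heat shock, against 29.2 and 27.2 CPM in young control. The senescent heat shock libraries lay on either side of their controls, and the young ones below theirs. The change was −0.15 ± 0.62 in senescent cells (adjusted p = 0.894) and −1.72 ± 0.65 in young cells (adjusted p = 0.256; 0.0395 with no filter on low counts).

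EGR1 footprints were 41.2 and 95.1 CPM in senescent heat shock, against 50.8 and 43.7 CPM in senescent control. They were 32.3 and 41.3 CPM in young heat shock, against 61.3 and 62.9 CPM in young control. Young heat shock was below its control without overlap, while senescent heat shock overlapped its control. The change was 0.52 ± 0.35 in senescent cells (adjusted p = 0.359) and −0.75 ± 0.35 in young cells (adjusted p = 0.338), and the responses differed by 1.28 ± 0.50 (adjusted p = 0.834). The senescent value depended on the library: it was 0.98 (adjusted p = 0.0297) without senescent heat shock replicate 1 and −0.23 without replicate 2.

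IER5L, KLF6 and KLF4 footprints did not pass in either state. IER5L had 26.6 and 29.7 CPM in senescent heat shock, against 8.12 and 14.7 CPM in senescent control, a change of 1.29 ± 0.41 (adjusted p = 0.0831). It had 19.8 and 42.6 CPM in young heat shock, against 23.4 and 18.7 CPM in young control, a change of 0.57 ± 0.39 (adjusted p = 0.521). The IER5L libraries separated in the senescent state and overlapped in the young one, and DESeq2 (1.30, adjusted p = 0.0279) and the fit with no filter (1.26, 0.0228) called the senescent change.

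KLF6 footprints were 57.7 and 47.6 CPM in senescent heat shock, against 100.2 and 81.6 CPM in senescent control, a change of −0.78 ± 0.21 (adjusted p = 0.0515). They were 49.8 and 54.1 CPM in young heat shock, against 87.6 and 91.8 CPM in young control, a change of −0.79 ± 0.21 (adjusted p = 0.119). Groups were apart in both states. Among alternatives without a block, the senescent value passed with DESeq2 (adjusted p = 0.0237), with no filter (0.0380), with limma on log2(TPM + 1) (0.0307) and on log2(TPM + 0.1) (0.0358), and without senescent heat shock replicate 1 (0.0314). Scaled by library size only, it was −1.06 in senescent (adjusted p = 0.0194) and −1.06 in young cells (0.0455).

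KLF4 footprints were 2.98 and 3.40 CPM in senescent heat shock, against 3.96 and 7.43 CPM in senescent control. They were 6.25 and 7.22 CPM in young heat shock, against 7.97 and 8.55 CPM in young control. Heat-shocked libraries lay below controls in both states, on 16 to 39 counts each. The change was −0.85 ± 0.43 in senescent cells (adjusted p = 0.224) and −0.29 ± 0.39 in young cells (adjusted p = 0.768).

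**Figure D3:**
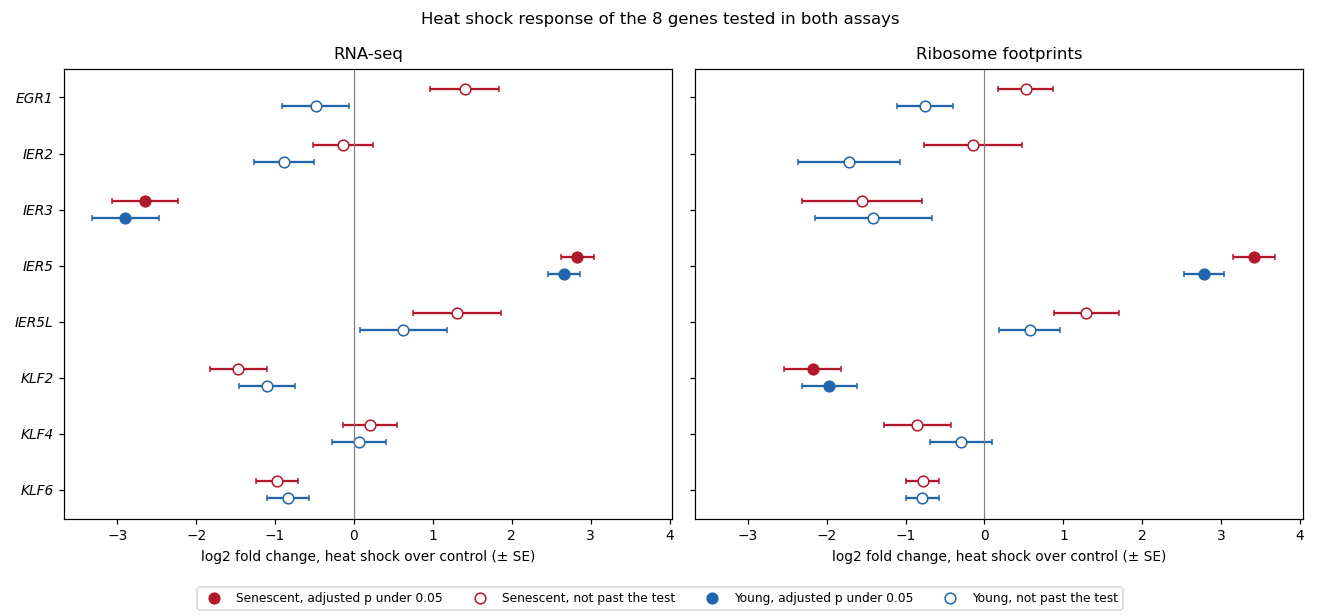
Log2 fold change of heat shock over control (horizontal axis) with SE bars for the 8 genes tested in both assays, RNA-seq on the left and footprints on the right, senescent in red above young in blue, filled where the adjusted p is under 0.05. IER5 is the filled gene to the right of 0 in both panels (2.66 to 3.42), IER3 is filled in RNA and KLF2 in footprints, and EGR1 has senescent and young points on opposite sides of 0.

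Whether ribosome occupancy changed beyond RNA was tested as the footprint change minus the RNA change (translational efficiency) in 1 edgeR fit over 16 libraries and 11166 genes, 8 of them members. No member passed in either state, with 0 below 0.05 before adjustment and 0 by DESeq2 in both. Of all genes 2.43% passed in senescent cells and 0.0896% in young cells, and 16.7% and 4.11% lay below 0.05 before adjustment. IER5 differed by 0.56 ± 0.31 in senescent cells (adjusted p = 0.392) and 0.12 ± 0.31 in young cells (adjusted p = 1). KLF2 gave −0.74 ± 0.53 in senescent cells (adjusted p = 0.510) and −0.88 ± 0.51 in young cells (adjusted p = 1). IER3 gave 1.06 ± 0.90 (adjusted p = 0.583) and 1.48 ± 0.88 (adjusted p = 1) in the same order, and KLF4 −1.08 ± 0.55 (adjusted p = 0.338) and −0.36 ± 0.52 (adjusted p = 1). The SEs of these differences ran from 0.31 to 0.90.

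The ratio of mean footprint TPM to mean RNA TPM describes the same data per length, with no test. KLF2 had 1.28 in senescent heat shock, against 2.25 in senescent control, and 1.26 in young heat shock, against 2.21 in young control. IER3 had 1.24 in senescent heat shock, against 0.616 in senescent control, and 1.95 in young heat shock, against 0.659 in young control. KLF2 was thus lower and IER3 higher with heat in both states, though the IER3 senescent heat shock footprints were 9 and 52 counts. EGR1, IER2 and KLF4 were also lower in both states. In senescent heat shock against control, EGR1 had 0.448 against 0.879, IER2 0.998 against 1.09 and KLF4 0.276 against 0.612. In young cells they had 0.717 against 0.814, 0.636 against 1.07 and 0.674 against 0.811. IER5 was higher, with 0.800 against 0.577 in senescent and 0.846 against 0.742 in young cells. KLF6 stayed between 1.77 and 1.98 in the 4 groups. IER5L had the highest ratios in young cells, 3.15 in heat shock and 3.08 in control.

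**Figure D4:**
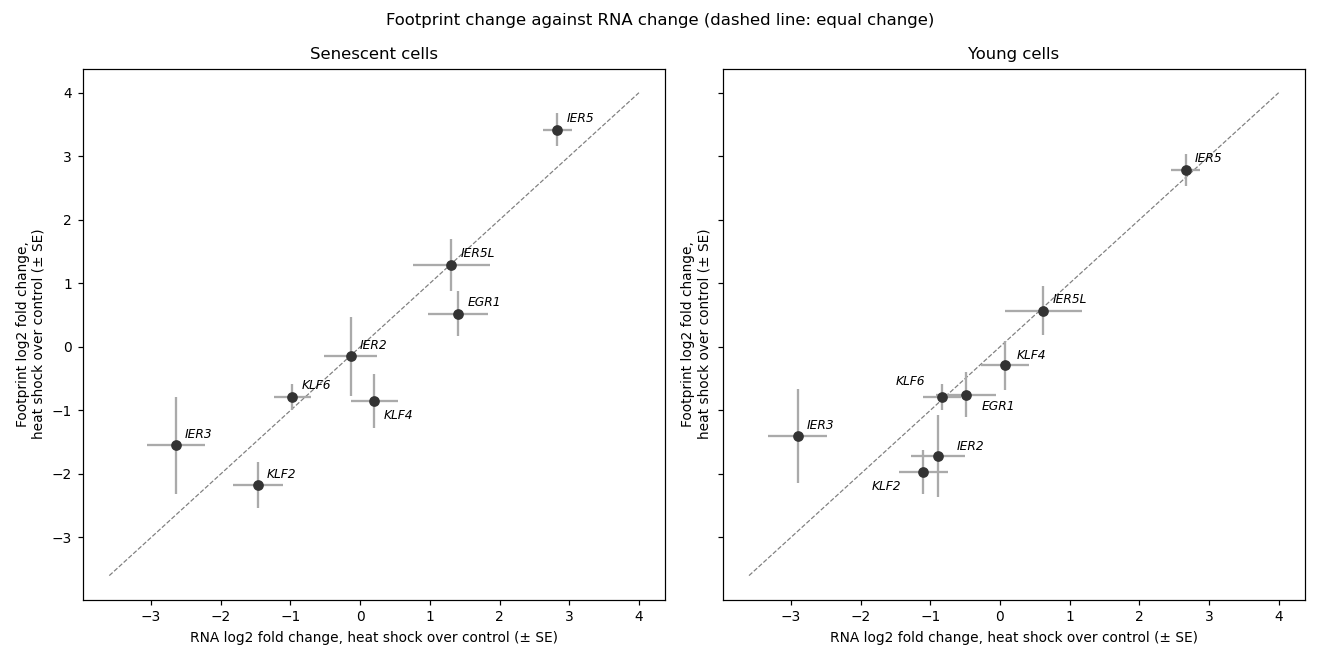
Footprint log2 fold change (vertical axis) against RNA log2 fold change (horizontal axis) of heat shock over control for the 8 genes, senescent cells on the left and young cells on the right, with SE bars and a dashed line of equal change. IER3 lies above the line in both panels (footprints −1.55 and −1.41, RNA −2.65 and −2.90) and KLF2 below it.

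Senescent and young cells were also compared directly. At rest no member passed in RNA, against 0.0379% of all genes, or in footprints, against 0%, and before adjustment 0 lay below 0.05 in each, against 7.2% of all genes in RNA and 7.84% in footprints, with 0 by DESeq2 and by limma on TPM. RNA of 2 of 10 members, EGR1 and EGR3, was lower in both senescent controls than in both young controls, as it was for 18.1% of all genes. EGR1 RNA differed by −0.40 ± 0.43 (adjusted p = 0.914). Footprints of 6 of the 8 members tested (EGR1, IER2, IER5, IER5L, KLF2 and KLF4) were lower in both senescent controls without overlap, against 26.7% of all genes. Both shares at rest count the lower direction only, the one in which the members named were apart, while those under heat shock below count either direction. No share in either direction was computed at rest. The shares at rest thus follow the members' own direction and are a narrow background for their counts. The changes of these 6 lay between −0.87 ± 0.40 for IER5L (adjusted p = 0.648) and −0.26 ± 0.32 for KLF2 (adjusted p = 0.865), and the likeness of the young control pair given above moves with this comparison; its part was not tested. Under heat shock no member passed in RNA, against 0% of all genes, with 1 at an unadjusted p under 0.05, against 11.5% of all genes. This was EGR1, at 1.49 ± 0.44 (adjusted p = 0.299), which DESeq2 called (1.52, adjusted p = 0.0347) and limma did not. The replicate block called it too (1.45, adjusted p = 0.0212), 1 of 10 members, against 13.7% of all genes. Without senescent heat shock replicate 2 the EGR1 difference was 0.69 (adjusted p = 0.778), and without replicate 1 it was 2.02 (0.173). IER5 RNA gave 0.25 ± 0.19 (adjusted p = 0.606) and KLF2 RNA −0.56 ± 0.36 (adjusted p = 0.552), each with separate libraries. In all 3 of 10 members had RNA libraries that did not overlap between the states under heat shock, against 43.1% of all genes. In footprints under heat shock 0 members passed, against 0.00886% of all genes, with 2 of 8 below 0.05 before adjustment (EGR1 and KLF4), against 13% of all genes, and 0 by DESeq2 and by limma. Libraries did not overlap for 1 of 8, KLF4, against 40.5% of all genes. EGR1 gave 0.88 ± 0.36 (adjusted p = 0.357), which was 1.34 (0.0304) without senescent heat shock replicate 1 and 0.13 (0.919) without replicate 2. IER2 gave 1.31 ± 0.66 (adjusted p = 0.432) and KLF4 −1.08 ± 0.43 (adjusted p = 0.346). Translational efficiency of senescent against young cells called 0 of 8 members at rest, against 0.00896% of all genes, and 0 of 8 under heat shock, against 0%. Before adjustment 0 members at rest and 1 under heat shock lay below 0.05, against 0.788% and 6.56% of all genes. KLF4 translational efficiency under heat shock was −1.23 ± 0.54 in senescent relative to young cells (adjusted p = 0.756).

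The test of whether the heat response differed between the states called 0 members in RNA, footprints and translational efficiency, against 0%, 0% and 0.00896% of all genes. At an unadjusted p under 0.05 there were 1, 1 and 0 members, against 0.903%, 4.91% and 2.28% of all genes, EGR1 being the 1 in both assays, and DESeq2 called 0 in each, as did limma in RNA and footprints. IER2 gave 0.75 ± 0.54 in RNA and 1.57 ± 0.90 in footprints (adjusted p = 1 and 0.834), and IER3 0.25 ± 0.56 in RNA (adjusted p = 1).

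The libraries of a heat-shocked pair often differed in the same way. Replicate 2 was above replicate 1 in all 4 heat-shocked pairs (both states and both assays) for EGR1, IER2, IER3, IER5L and KLF4, 5 of the 8 members tested in both assays, against 18% of 11166 genes. The ratio of replicate 2 to replicate 1 was 1.28 to 2.51 for EGR1, 1.61 to 4.79 for IER2 and 1.85 to 9.05 for IER3. IER5 (0.968 to 1.52) and KLF6 (0.610 to 1.09) did not share this. These ratios are those of heat-shocked pairs. The order was not confined to them: in control pairs replicate 2 was higher in 3 of 4 for each of the 5 genes. Control ratios were 0.861 to 1.09 for EGR1, 0.932 to 1.34 for IER2 and 0.937 to 1.41 for IER3. The highest control ratio was 3.45 for IER5L, against 2.15 in heat-shocked pairs, and 1.88 for KLF4, against 1.99. The labels do not say what a replicate number stands for.

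For each member with a group mean of at least 10 CPM in RNA, the genes with the most similar pattern over the 8 RNA libraries were found among 9153 genes, by the root mean square difference of mean-centred log2 CPM. EGR1 was nearest to SOCS3 (0.33) and SNAI1 (0.38), and IER3 to ZFP36 (0.30) and LIF (0.49). IER5 was nearest to CRYAB (0.19), a small heat shock protein, and MTRNR2L1 (0.26). The SDs of EGR1, IER3 and IER5 over libraries were 0.73, 1.55 and 1.47. KLF6 was nearest to DSEL (0.068) and ABHD13 (0.084), with an SD of 0.55, and IER2 to PATZ1 (0.18) and AURKA (0.18), with an SD of 0.52. IER5L was nearest to PLBD2 (0.18) and ATN1 (0.24), and KLF4 to FEZ1 (0.15) and GLA (0.16).

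The wider pathway was described by counts. Of 19 genes upstream of early genes (SRF, its cofactors, ternary complex factors, ERK and ERK5 kinases and MEF2 factors) none passed in RNA in either state by edgeR, against 0 in senescent and 2 in young cells with p under 0.05 before adjustment, 0 and 1 called by DESeq2 (MKL2), 0 and 2 with the replicate block (MAPK7 and MKL2) and 0 by limma. Their median RNA change was −0.0034 in senescent and −0.14 in young cells. Over all genes 8.29% in senescent and 10.1% in young cells had p under 0.05 before adjustment in RNA. In the same order DESeq2 called 2.16% and 3.38% of all genes, and the replicate block 6.28% and 8.77%. In footprints SRF and ELK1 fell in senescent cells, 2 of 18, against 8.35% of all genes, with a median of −0.55. In young cells SRF fell, 1 of 18, against 1.15% of all genes, with a median of −0.39. SRF footprints averaged 13.1 CPM in senescent heat shock, against 44.8 CPM in senescent control, and 18.9 CPM in young heat shock, against 47.2 CPM in young control. SRF RNA averaged 88.4, 109.8, 93.5 and 119 CPM in the same order. In translational efficiency SRF was the 1 gene of this list called in senescent cells, against 2.43% of all genes. In young cells 0 were called, against 0.0896%. The footprint fall of SRF was −1.77 ± 0.24 in senescent cells (adjusted p = 0.00554; called in all 16 alternatives) and −1.32 ± 0.23 in young cells (adjusted p = 0.0330; called in 10 of 16, up to 0.442). Its translational efficiency fell in senescent cells by −1.48 ± 0.33 (adjusted p = 0.0349; called in 13 of 22, up to 0.159). ELK1 fell by −2.22 ± 0.50 (adjusted p = 0.0311; called in 9 of 16, up to 0.109).

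Of 15 other KLF and EGR genes 9 were tested. None passed in RNA by edgeR, against 2 in senescent and 4 in young cells with p under 0.05 before adjustment, 1 in each called by DESeq2 and with no filter (KLF3), 1 (KLF3) and 4 (KLF3, KLF5, KLF7 and KLF9) with the replicate block and 0 by limma, with medians of −0.070 and −0.26. The shares of all genes are those given for the upstream genes, and 0.921% in senescent and 1.79% in young cells with no filter. Footprints gave 1 call in this list in young cells (KLF3), against 1.15% of all genes, and 0 in senescent cells, against 8.35%. The test of whether the footprint response differed between the states called 0 of all genes, so the KLF3 call does not show a difference between them. In footprints KLF3 rose in young cells by 1.84 ± 0.35 (adjusted p = 0.0466), a call held in 6 of 16 alternatives with adjusted p up to 0.422. KLF3 RNA averaged 80.3 CPM in senescent heat shock, against 30.1 CPM in senescent control, and 103 CPM in young heat shock, against 30.6 CPM in young control. Among 10 EGR co-repressors and known EGR targets, ID3, an inhibitor of basic helix-loop-helix factors, was the gene that passed in RNA in both states, rising by 2.17 ± 0.28 in senescent cells (adjusted p = 0.0171; up to 0.187 over alternatives) and 2.16 ± 0.28 in young cells (0.0126; up to 0.122). NAB1, NAB2 and the other targets of that list did not pass in RNA, though with the replicate block F3 passed beside ID3 in senescent cells, and F3 and PLAU beside it in young cells. Over all genes 0.577% passed in senescent and 1.14% in young RNA, and 6.28% and 8.77% with the block. Footprints gave 2 calls in this list in senescent cells (ID3 and F3), against 8.35% of all genes, and 1 in young cells (ID3), against 1.15%. ID3 footprints rose by 2.63 ± 0.37 in senescent cells (adjusted p = 0.00737; called in 15 of 16) and 2.47 ± 0.37 in young cells (0.0152; called in 11 of 16). Footprints of F3, which codes for tissue factor, fell in senescent cells by −1.28 ± 0.31 (adjusted p = 0.0392; called in 10 of 16).

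Among 32 other early response genes, 3 rose and 1 fell in RNA of senescent cells (median 0.24), against 0.577% of all genes passing in either direction. In RNA of young cells 3 rose and 2 fell (median 0.13), against 1.14%. With the replicate block 15 of them passed in senescent cells, against 6.28% of all genes, and 18 in young cells, against 8.77%. FOS, the AP-1 subunit, rose by 5.40 ± 0.65 in senescent cells (adjusted p = 0.0126) and 3.91 ± 0.60 in young cells (0.0283), and PPP1R15A, a phosphatase subunit that reverses eIF2 phosphorylation, by 2.62 ± 0.25 (0.00427) and 2.02 ± 0.25 (0.0102) in the same order. CYR61, a matricellular target of SRF and YAP, fell by −2.28 ± 0.22 in senescent cells (adjusted p = 0.00427) and −1.28 ± 0.21 in young cells (0.0367). Over alternatives the FOS call held in 13 of 15 in senescent and 9 of 15 in young cells, and the CYR61 call in 13 and 9 of 15. In footprints 6 of 29 rose and 3 fell in senescent cells, against 8.35% of all genes passing in either direction, and 2 rose and 3 fell in young cells, against 1.15%.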

How the data were processed

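RNA-seq and Ribo-seq of WI-38 cells were taken from per-gene tables. Expected counts from RSEM, as the authors deposited them, were rounded to whole numbers here, and the TPM that the authors deposited, a per-length level, served to compare genes. STAR, RSEM, Bowtie2 and the build hg19 are named in the submitters' processing notes. The sources used here do not give their roles, the annotation, trimming or strand setting. The RNA libraries came from an Illumina TruSeq RNA kit, and footprints from RNase If digestion and a sucrose cushion, per the labels' protocols. The temperature is written 440C in the labels and was read as 44 °C. All 32 columns of values were used.

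Groups follow the labels. After filterByExpr and TMM scaling, rounded counts were tested two-sided with edgeR 4.0.16 (R 4.3.3) on 1 mean per group, which left 4 residual degrees of freedom in each assay and 8 in the joint fit. Calls have an adjusted p under 0.05 over all genes tested. SE is the log2 fold change over the root of the F statistic. EGR2 and EGR3 did not pass the filter in footprints. Alternatives were RLE and library-size scaling, no filter, a replicate block, DESeq2 1.42.0, limma 3.58.1 on log2 TPM with pseudocounts of 1 and 0.1 (genes at 1 TPM or more in at least 2 libraries), and leaving out each library. Deviations of same-numbered RNA libraries from their group means correlated at 0.48 to 0.66 in all 6 pairs of groups. The replicate numbers thus appeared to pair the RNA libraries, though the labels do not say what they mark. The main fit did not use this pairing, so RNA calls with the replicate block are given beside its calls. Summing the young control footprints was added after seeing the data. Scripts were tested on simulated data.

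All 10 members are named. Of each list up to 4 called genes with a group mean of at least 10 CPM may be named, and up to 2 nearest patterns per member. Genes named only as called under an alternative were chosen after their values were seen. Members and lists were chosen with earlier results of these data known. P-values measure the spread between these libraries, which may be technical, and limits from counts of 0 cover counting error only.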

Additional observations from a re-analysis of the deposited data

Results flagged for a closer look

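EGR1 RNA stood out because all heat-shocked libraries were above their controls in senescent cells and below them in young cells. The levels were 74.1 and 186 CPM in senescent heat shock, against 46.9 and 51.2 CPM in senescent control, and 32.0 and 60.4 CPM in young heat shock, against 63.9 and 65.5 CPM in young control. The senescent response minus the young one was 1.89 ± 0.61 on the log2 scale, and the test of this difference did not pass when adjusted over all genes (edgeR, adjusted p = 1). Leaving out each library in turn gave 1.07 to 2.40 for this difference and 0.58 to 1.91 for the senescent response, the lowest of both without senescent heat shock replicate 2.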

How the results depend on the processing

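Counts of members called moved by over 1.5 times under these alternatives. With DESeq2 there were 5 in RNA of senescent cells under heat shock against control (2.16% of all genes), 1 in RNA of senescent against young cells under heat shock (1.86%) and 4 in senescent footprints (13.4%). With no filter there were 4 in senescent footprints (10.4%). In young footprints there was 1 with limma on log2(TPM + 0.1) (0.469%) and with the young control footprints as 1 sample (0.23%). Smaller moves gave 3 in both heat comparisons of footprints by library size only (KLF6 added), against 12% of all genes in senescent and 2.1% in young cells. They also gave 3 in young footprints with no filter (IER2 added, 2.88%). Senescent footprints had 3 with limma on log2(TPM + 1) (8.68%) and on log2(TPM + 0.1) (7.22%), KLF6 being added in each. Leaving out each library gave 1 to 2 members in RNA of each state, 1 to 2 in young footprints, 1 to 4 in senescent footprints and 0 to 1 in footprints of senescent against young cells under heat shock. Directions turned for KLF4 RNA in young cells, with −0.23 by library size only, −0.23 by limma on log2(TPM + 1) and −0.27 on log2(TPM + 0.1), and in senescent cells with −0.029 by library size only. Directions also turned when a library was left out, over ranges of −0.23 to 0.98 for the EGR1 senescent footprint response, −1.69 to 0.57 for that of IER2, −0.79 to 0.30 for the IER2 senescent RNA response, −0.24 to 2.12 for IER2 footprints of senescent against young cells under heat shock, −0.11 to 1.02 for the IER5L young footprint response and −0.48 to 0.48 for the KLF4 young RNA response. The same held for the difference between responses of IER3 RNA (−0.32 to 0.72), IER5 RNA (−0.026 to 0.31) and KLF2 footprints (−0.57 to 0.23), and for translational efficiency of IER3 in senescent (−1.15 to 1.98) and KLF4 in young cells (−0.78 to 0.21). The cause was not tested. In all, 405 of 434 values of single members kept direction and call under alternatives that keep all libraries, and 535 of 568 when a library was left out.

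Scaling by library size only turned the split of all calls to 41 higher and 53 lower in senescent RNA (48 and 28 with TMM), 60 and 134 in young RNA (88 and 62), 173 and 1180 in senescent footprints (352 and 591) and 68 and 169 in young footprints (87 and 43). Other early response genes called in RNA were 4 in senescent and 5 in young cells, 13 and 13 with DESeq2 (2.16% and 3.38% of all genes), and 2 to 5 and 0 to 6 when a library was left out. In footprints they were 9 and 5, 10 and 11 with DESeq2 (13.4% and 3.96%), and 2 to 9 and 0 to 7. Upstream genes called in senescent footprints were 2 (8.35% of all genes), and 4 with DESeq2 (13.4%) and 5 with no filter (10.4%). Footprint depth left EGR2 and EGR3 untested, and the lowest counts per library were 9 for IER3, 15 for KLF2 and 16 for KLF4.

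With replicate number as a block, members called were 6 in RNA of senescent cells and 5 in RNA of young cells under heat shock against control, and 1 in RNA of senescent against young cells under heat shock. In footprints the deviations of same-numbered libraries from group means correlated less, at −0.04 to 0.33 over 6 pairs of groups. Whether the replicate numbers pair the footprint libraries was not settled. There the block called 4 members in senescent cells, adding IER5L (adjusted p = 0.0307) and KLF6 (0.0344). It changed no other call of a member in RNA, footprints or translational efficiency. Over all genes the block called 351 higher and 477 lower in senescent RNA, 480 and 676 in young RNA, 1070 and 741 in RNA of senescent against young cells under heat shock, 675 and 992 in senescent footprints (14.8% of genes) and 173 and 157 in young footprints.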
